A study of Mus musculus with 21 samples.

Results

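Neurog3 and 7 transcriptional regulators that act with or after it in the making of pancreatic endocrine cells (Neurod1, Nkx2-2, Rfx6, Insm1, Myt1, St18 and Runx1t1) were followed in sorted cells of the mouse embryonic pancreas over 4 days of development. The genes were chosen by name. Each was read from the row of the deposited expression table whose annotation gave that 1 symbol and no other, and each of the 8 genes had 1 such probe set, so 8 of the 19296 genes measured are described here. In the embryonic pancreas, scattered epithelial cells switch on Neurog3, a basic helix-loop-helix transcription factor that commits them to the endocrine lineage, and then leave the epithelium and turn it off again as they become hormone cells. Neurog3 is held down by Notch signalling in the neighbouring progenitors and turns on a set of further regulators, among them the other 7 genes or their close relatives. Several of these genes are also used by neurons, and Nkx2-2 and Rfx6 are already active in early pancreatic epithelium before endocrine commitment.

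Pancreata carried a fusion of Foxa2, an endodermal transcription factor, with the fluorescent protein Venus (FVF), and were dissociated and sorted into FVF+ and FVF- cells on a mixed C57-Bl6/SV129/CD1 background. RNA from FVF+ cells was hybridised to 3 arrays at E12.5, to 2 a day later, and to 3 each at E14.5 and E15.5. RNA from FVF- cells was hybridised to 2 arrays at E12.5, to 2 a day later, and to 3 each at E14.5 and E15.5. Both sorts came from pancreata with the reporter, so no group lacked it, and the sources used here do not state the zygosity of the reporter or how many embryos made 1 sample. The FVF+ gate selects Foxa2-expressing epithelium and not endocrine progenitors alone, so each value is an average over progenitors, committed cells and hormone cells.

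Values are log2 signals after robust multi-array averaging, in which a difference of 1 is a 2-fold difference, and levels of different genes are not set against each other because probes differ in brightness. Within a group, arrays correlated at 0.985 to 0.997 over all genes, and between the sorts at 0.889 to 0.941. Foxa2 itself averaged 11.09 to 11.31 in FVF+ cells over the 4 days, against 8.16 to 8.47 in FVF- cells. The mean of 8 epithelial markers was 12.6 to 12.9 on FVF+ arrays, against 8.19 to 9.94 on FVF- arrays, and the mean of 10 mesenchyme markers was 7.68 to 9.25 on FVF+ arrays, against 11.3 to 12.3 on FVF- arrays. Array FVF- E14.5 replicate 3 stood apart, with the highest epithelial mean of the FVF- arrays, and the embryonic globin Hbb-y was high on FVF+ E12.5 replicate 1 (11.18) and on both FVF+ E13.5 arrays (11.4 and 11.01), against 7.31 to 8.64 on the other FVF+ arrays. The series' design text calls the samples biological replicates without giving litters or sorts, and the p-values therefore describe the spread among these samples alone. Their precision is limited by the number of arrays.

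Averaged over the 4 days, 7 of the 8 genes were higher in FVF+ cells and 1, Runx1t1, was lower (limma with Benjamini-Hochberg adjustment over all genes). Among all genes tested, 30.5% were called higher and 25.2% lower in this comparison. Neurog3, Neurod1, Rfx6 and Nkx2-2 differed by 4.46 to 5.03 log2 units, and by the size of the mean sort difference they ranked 4, 5, 10 and 19 of the 19296 genes. Insm1, St18 and Myt1 differed by 2.09 to 2.31 log2 units and ranked 240, 258 and 297. The median of the 8 differences was 3.38, and that of all genes was 0.03. In sorted bulk samples such as these, fewer cells that express a gene and less RNA of it per cell cannot be told apart.

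Neurog3 read 12.06, 12.91 and 12.41 on the FVF+ arrays of E12.5, 13.09 and 12.78 at E13.5, 13.34, 13.61 and 13.28 at E14.5, and 12.95, 13.02 and 13.01 at E15.5. On FVF- arrays it read 7.79 and 7.1 at E12.5, 7.6 and 7.4 at E13.5, 8.78, 7.57 and 9.38 at E14.5, and 7.63, 8.8 and 8.0 at E15.5. Every FVF+ array was above every FVF- array, and the lowest FVF+ array lay 2.68 above the highest FVF- array. The mean sort difference was 5.03 ± 0.19 (SE), a 32.7-fold difference (adjusted p = 8.33e-14).

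Neurod1, a basic helix-loop-helix factor and direct target of Neurog3 that is kept in mature islet cells, read 10.83, 10.87 and 10.26 in FVF+ cells at E12.5, 11.26 and 10.37 at E13.5, 12.1, 11.73 and 12 at E14.5, and 10.27, 10.44 and 11.07 at E15.5. Its FVF- values lay between 5.75 and 6.74 with a median of 5.98, so the sorts were 3.52 apart at their nearest arrays. The FVF- values were 6.07 and 5.87 at E12.5, 5.88 and 6.04 at E13.5, 5.92, 5.87 and 6.37 at E14.5, and 6.22, 6.74 and 5.75 at E15.5. These low values changed little from day to day, while the FVF+ arrays of E14.5 stood above those of all other days. The mean sort difference was 4.95 ± 0.14, or 30.8-fold (adjusted p = 4e-15). It was 5.89 ± 0.26 at E14.5 and 4.36 ± 0.26 at E15.5, the highest and lowest of the 4 days.

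Nkx2-2, a homeodomain factor that islet progenitors and beta cells need, was the steadiest of the 8 genes in FVF+ cells. It read 11.99, 12.13 and 11.84 at E12.5, 11.91 and 11.79 at E13.5, 11.79, 11.97 and 11.81 at E14.5, and 11.78, 11.5 and 11.66 at E15.5, a range of 0.63 over 11 arrays. On FVF- arrays it read 6.96 and 7.06 at E12.5, 7.23 and 7.08 at E13.5, 7.37, 6.91 and 9.23 at E14.5, and 7.36, 7.72 and 7.47 at E15.5. A single FVF- array, E14.5 replicate 3, was far above the others, and the nearest arrays of the sorts were still 2.27 apart. The mean sort difference was 4.46 ± 0.19, or 21.9-fold (adjusted p = 4.21e-13).

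Rfx6, a winged-helix factor that endocrine cells need downstream of Neurog3, read 10.42, 11.18 and 10.35 in FVF+ cells at E12.5, 11.04 and 10.51 at E13.5, 11.51, 11.35 and 11.69 at E14.5, and 11.37, 10.99 and 11.32 at E15.5. Its FVF- values were 6.18 and 6.02 at E12.5, 6.06 and 6.22 at E13.5, 5.93, 6.06 and 7.72 at E14.5, and 6.23, 6.29 and 5.92 at E15.5. As for Nkx2-2, E14.5 replicate 3 was the high FVF- array, and the sorts did not overlap. The mean sort difference was 4.80 ± 0.18, or 27.9-fold (adjusted p = 7.41e-14).

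The upstream sequences of 3 genes with wide sort differences and at least 1 E-box are given, because Neurog3 and Neurod1 proteins bind E-boxes. Rfx6, which differed by more than Nkx2-2 (4.80 against 4.46), held no E-box in its window and is not printed. The RefSeq promoter table (GRCm38.p6) matched 5 of the 8 genes, with 3 entries for Myt1, and St18, Insm1 and Runx1t1 are named here without one. Each line gives the 250 bases before the transcription start, read 5′ to 3′ on the gene's strand, with E-boxes (CANNTG, the same on both strands) in capitals. They lie at chr10:62132840-62133089 on the plus strand for Neurog3, at chr2:79456637-79456886 on the minus strand for Neurod1 and at chr2:147186403-147186652 on the minus strand for Nkx2-2.
Neurog3: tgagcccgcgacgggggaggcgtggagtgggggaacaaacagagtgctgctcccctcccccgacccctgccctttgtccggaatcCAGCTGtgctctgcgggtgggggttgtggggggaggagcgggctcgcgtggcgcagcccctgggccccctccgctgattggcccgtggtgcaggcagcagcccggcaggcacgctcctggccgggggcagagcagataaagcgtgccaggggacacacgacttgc
Neurod1: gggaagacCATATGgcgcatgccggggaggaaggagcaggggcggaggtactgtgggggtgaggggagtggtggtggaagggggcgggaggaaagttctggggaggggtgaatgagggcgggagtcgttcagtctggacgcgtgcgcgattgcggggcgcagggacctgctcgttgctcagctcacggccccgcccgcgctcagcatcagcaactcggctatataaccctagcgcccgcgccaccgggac
Nkx2-2: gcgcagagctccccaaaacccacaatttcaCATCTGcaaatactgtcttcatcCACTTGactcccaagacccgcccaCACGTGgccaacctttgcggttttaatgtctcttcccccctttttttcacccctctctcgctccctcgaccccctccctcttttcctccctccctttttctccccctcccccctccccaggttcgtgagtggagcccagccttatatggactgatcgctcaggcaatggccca
Neurog3 held 1 E-box, CAGCTG, 165 to 160 bases before its start, and Neurod1 held 1, CATATG, at 242 to 237. Nkx2-2 held 3, and the first, CATCTG at 220 to 215, is the reverse complement of CAGATG, an E-box form that Neurog and Neurod factors bind. Nkx2-2 was the 1 gene of the 5 with that form, which 14.4% of all 32851 promoter entries also held on either strand. Any E-box was present in 66.2% of all entries, and it was absent from the Rfx6 window and from 1 of the 3 Myt1 windows. AAGTG, the core bound by NK2 factors, was found once, in Nkx2-2, within the reverse complement of its CACTTG E-box, and 40.7% of all entries held it. The N-box CACNAG, bound by Hes repressors, was found once, in Rfx6, and in 36.7% of all entries. A match describes the letters of these windows and is not evidence of binding, and the arrays did not measure binding.

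Insm1, a zinc-finger factor of endocrine and neuronal precursors, read 10.75, 11.28 and 10.86 in FVF+ cells at E12.5, 11.47 and 10.76 at E13.5, 11.9, 12.31 and 11.55 at E14.5, and 11.09, 11.63 and 11.35 at E15.5. Its FVF- values were 9.3 and 9.54 at E12.5, 8.82 and 8.94 at E13.5, 9.35, 9.09 and 9.1 at E14.5, and 8.34, 9.14 and 8.39 at E15.5. The sorts were 1.21 apart at their nearest arrays, and the mean difference was 2.31 ± 0.13, or 4.97-fold (adjusted p = 1.08e-11). On the 4 days in order it was 1.54, 2.24, 2.74 and 2.73.

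Myt1, a zinc-finger factor that acts with Neurog3 in endocrine progenitors, read 8.27, 9.14 and 8.26 in FVF+ cells at E12.5, 9.38 and 8.45 at E13.5, 10.3, 10.45 and 10.14 at E14.5, and 10.48, 9.93 and 10.34 at E15.5. Its FVF- values were 7.32 and 7.17 at E12.5, 7.52 and 7.13 at E13.5, 7.56, 7.55 and 7.9 at E14.5, and 7.37, 7.62 and 7.29 at E15.5. The FVF+ arrays of the 2 later days were all above those of the 2 earlier days, and the FVF- arrays of all days lay within 0.77. The nearest arrays of the sorts were 0.36 apart, the smallest gap among the 7 genes that did not overlap. The mean sort difference was 2.09 ± 0.13, or 4.25-fold (adjusted p = 6.34e-11), with daily values of 1.31, 1.59, 2.63 and 2.82 from E12.5 to E15.5.

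St18, a zinc-finger factor of the same family, read 8.81, 8.9 and 8.37 in FVF+ cells at E12.5, 9.52 and 8.42 at E13.5, 10.13, 9.72 and 10.27 at E14.5, and 9.68, 9.23 and 9.62 at E15.5. Its FVF- values lay between 6.78 and 7.29 with a median of 7.04, the narrowest FVF- range of the 8 genes at 0.51. They were below the array medians of 8.68 to 8.82 over all probe sets, where small changes are hard to see. The groups did not overlap, and the mean sort difference was 2.26 ± 0.12, or 4.78-fold (adjusted p = 9.74e-12). It was 1.51, 2.09, 2.94 and 2.49 from E12.5 to E15.5.

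Runx1t1, a transcriptional co-repressor of the ETO family, ran the other way. It read 10.16, 9.98 and 9.49 in FVF+ cells at E12.5, 10.47 and 10.02 at E13.5, 11.1, 10.91 and 10.99 at E14.5, and 10.77, 10.45 and 10.71 at E15.5. In FVF- cells it read 11.68 and 11.53 at E12.5, 11.87 and 12.18 at E13.5, 11.32, 11.62 and 11.74 at E14.5, and 11.03, 11.5 and 11.11 at E15.5. Within each day all FVF+ arrays were below all FVF- arrays, and across days the highest FVF+ array (11.1) and the lowest FVF- array (11.03) overlapped. The mean sort difference was -1.16 ± 0.09, or 2.23-fold lower (adjusted p = 3.34e-09). Markers of 4 other cell types were also lower in FVF+ cells, with 10 of 10 mesenchyme, 7 of 8 neuronal and neural crest, 5 of 5 endothelium and 6 of 6 blood markers called lower, against 25.2% of all genes. The per-array mean of the endothelium list was 7.31 to 9.43 on FVF+ arrays, against 10.18 to 11.55 on FVF- arrays, and that of the blood list was 6.94 to 8.598 on FVF+ arrays, against 9.88 to 11.66 on FVF- arrays. The mean of the neuronal and neural crest list was 7.67 to 8.32 on FVF+ arrays, against 9.21 to 9.82 on FVF- arrays. Their part in the Runx1t1 difference was not tested.

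**Figure D1:**
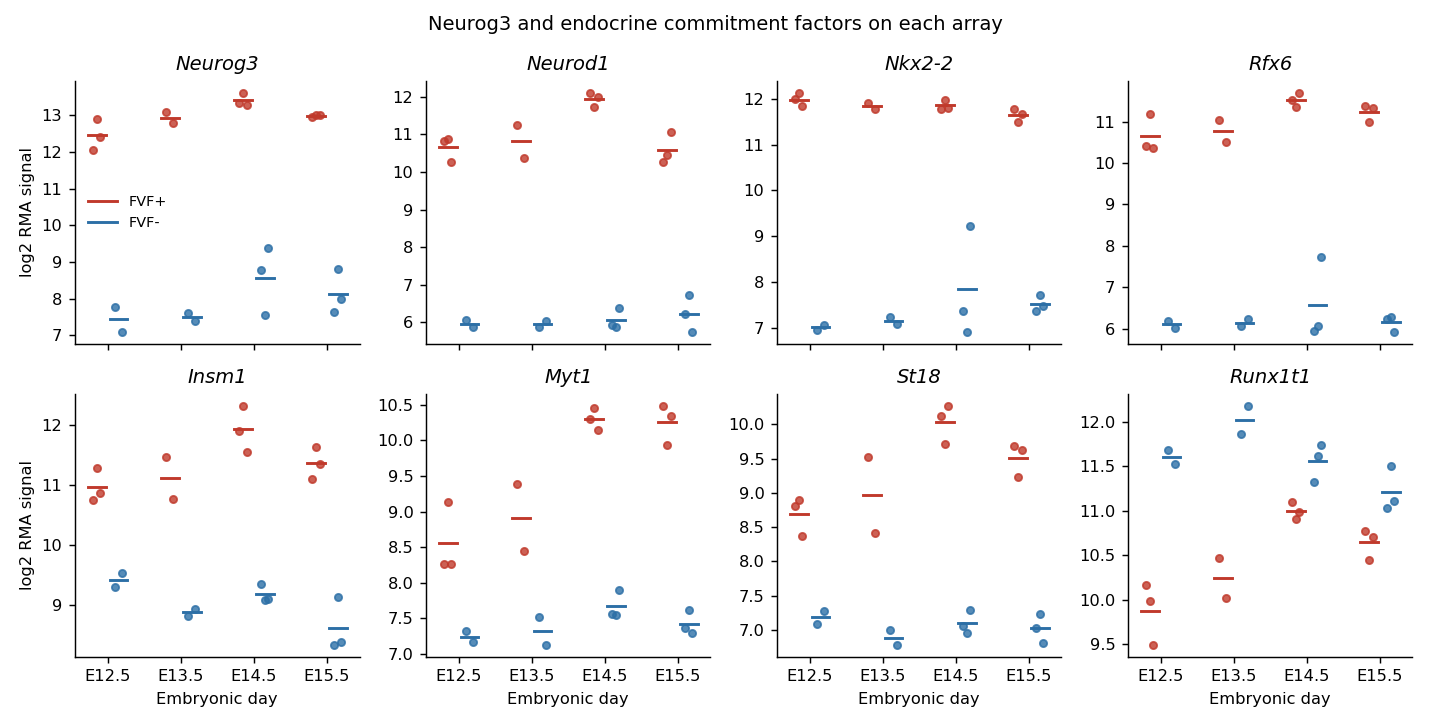
Log2 RMA signal of the 8 genes (1 panel each, with its own axis) on every array, by embryonic day, with FVF+ arrays in red and FVF- arrays in blue and bars at group means. FVF+ arrays lie above FVF- arrays for all genes except Runx1t1, in which they lie below within each day, and FVF- E14.5 replicate 3 is the isolated high FVF- point for Nkx2-2 (9.23) and Rfx6 (7.72).

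The same direction held within each of the 4 days, with 7 genes higher in FVF+ cells and Runx1t1 lower. Of all genes, 17.2% were called higher and 18.7% lower at E12.5, 15.8% and 15.2% at E13.5, 23.1% and 21.5% at E14.5, and 24.4% and 19.5% at E15.5. The 11 FVF+ arrays were all above the 10 FVF- arrays for 7 of the 8 genes, as for 7.81% of all genes. For Runx1t1 the difference was -1.73 ± 0.19 at E12.5 and -1.78 ± 0.21 at E13.5, and -0.56 ± 0.17 at E14.5 and -0.57 ± 0.17 at E15.5 (adjusted p = 0.0124 and 0.0116 at these 2 later days, from limma). Each of the later values depended on single arrays. At E14.5 Runx1t1 no longer passed without FVF- replicate 3 (adjusted p = 0.0567), and at E15.5 it no longer passed without FVF- replicate 2 (0.0739) or without FVF+ replicate 2 (0.0578).

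**Figure D2:**
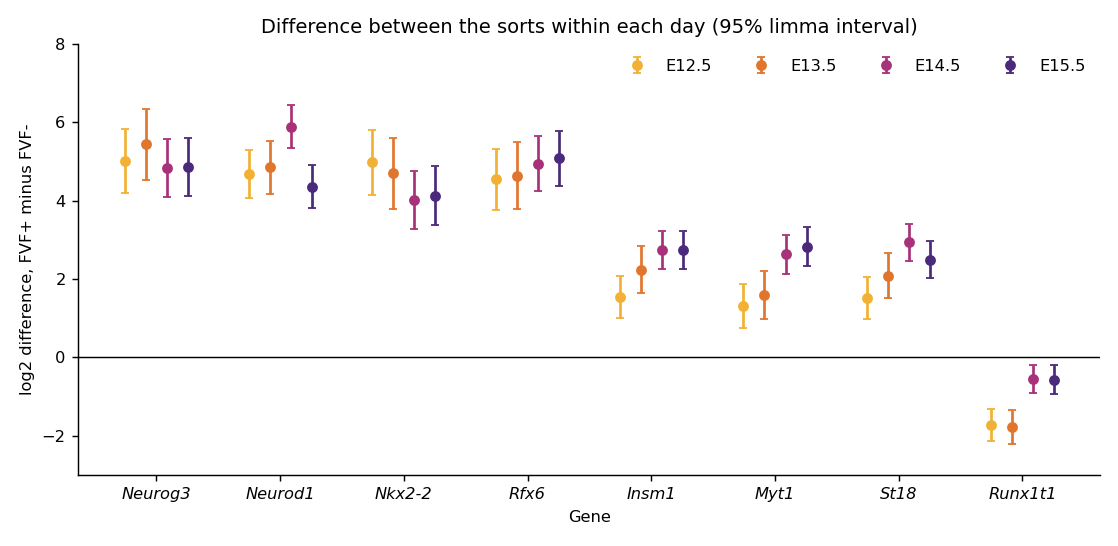
Log2 difference between the sorts, FVF+ minus FVF-, for each gene and day, with the 95% interval from limma. Neurog3, Neurod1, Nkx2-2 and Rfx6 lie between 4.02 and 5.89, Insm1, Myt1 and St18 between 1.31 and 2.94, and Runx1t1 below 0 on all 4 days.

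Among the FVF- arrays the signal of Neurog3 was highest where epithelial signal was highest, and the order was different for Rfx6 and Neurod1. FVF- E14.5 replicate 3 had the highest mean of the epithelial markers among the 10 FVF- arrays (9.94, with Epcam at 9.31) and the highest Neurog3 (9.38), Nkx2-2 (9.23) and Rfx6 (7.72). The next 2 arrays by epithelial mean, E15.5 replicate 2 (9.43) and E14.5 replicate 1 (9.26), had the next highest Neurog3 values of 8.8 and 8.78. The 5 arrays with the lowest epithelial means, 8.19 to 8.54, had Neurog3 between 7.1 and 7.79. Rfx6 read 5.93 on E14.5 replicate 1 and 5.92 on E15.5 replicate 3, although their epithelial means were 9.26 and 9.21, so its high value was on 1 array. Neurod1 had its highest FVF- values on E15.5 replicate 2 (6.74) and E14.5 replicate 3 (6.37) and its lowest on E15.5 replicate 3 (5.75). The part of epithelial cells in the FVF- signal was not tested.

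**Figure D3:**
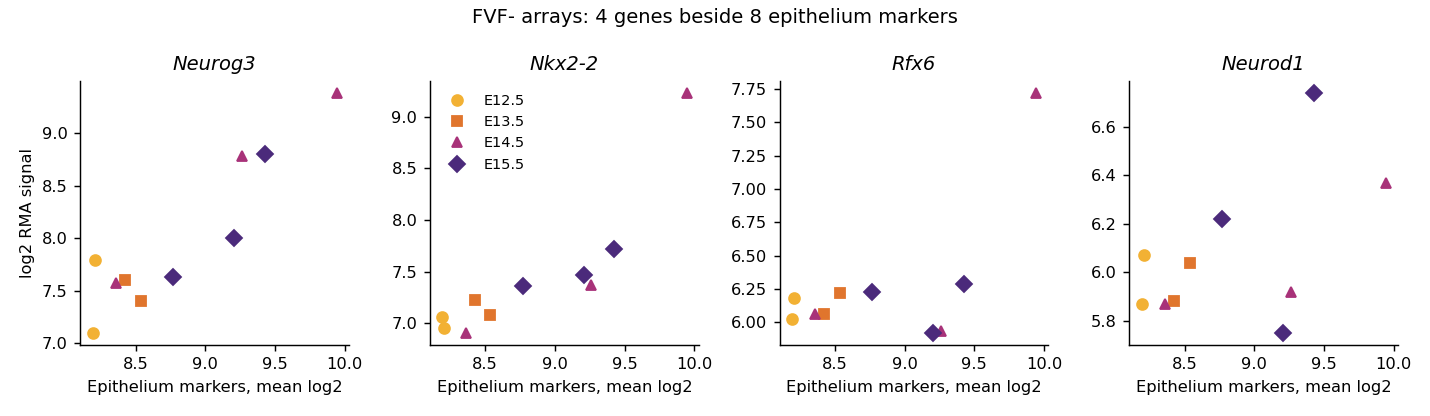
Log2 signal of Neurog3, Nkx2-2, Rfx6 and Neurod1 on the 10 FVF- arrays against the mean log2 signal of 8 epithelial markers on the same array, with a symbol for each day. The E14.5 array at an epithelial mean of 9.94 has the highest Neurog3, Nkx2-2 and Rfx6, and the highest Neurod1 is on the E15.5 array at 9.43.

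Within FVF+ cells the question was how the genes changed as the epithelium matured. At E15.5 against E12.5, 3 of the 8 genes rose (Myt1, St18 and Runx1t1), none fell, and 5 did not pass the test. Of all genes, 27.6% were called higher and 19.3% lower in this comparison, so the count that rose was near the share of all genes. The median change of the 8 genes was 0.56, and that of all genes was 0.09. Myt1 rose by 1.69 ± 0.24, or 3.23-fold (adjusted p = 3.12e-05), with group means of 10.25 ± 0.29 at E15.5 and 8.56 ± 0.51 at E12.5 (SD, n = 3 each). St18 rose by 0.82 ± 0.22 (adjusted p = 0.00705) and Runx1t1 by 0.77 ± 0.17 (adjusted p = 0.00183, both from limma). Mesenchyme signal was also higher in these FVF+ cells: 4 of 10 markers were called higher and 0 lower, with a per-array mean of 8.72 to 8.93 at E15.5 and 7.68 to 8.85 at E12.5, and its part in the Runx1t1 rise was not tested. Neurog3 differed by 0.53 with a 95% interval of -0.20 to 1.27, Rfx6 by 0.58 (-0.12 to 1.27) and Insm1 by 0.39 (-0.09 to 0.88). Neurod1 differed by -0.06 (-0.61 to 0.49) and Nkx2-2 by -0.34 (-1.08 to 0.40). With FVF- E14.5 replicate 3 left out, Rfx6 (adjusted p = 0.02) and Nkx2-2 (0.0324) also passed, at 0.58 and -0.34. In a fit of the 2 groups alone Neurog3 (adjusted p = 0.0375), Rfx6 (0.0466) and Nkx2-2 (0.0302) passed at the same differences.

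The change was not even over the 4 days. The FVF+ mean was highest at E14.5 in 7 of the 8 genes, against 16.9% of all genes, and Nkx2-2 was the exception, with its highest mean at E12.5. The lowest mean was at E12.5 in 6 genes, against 30.0% of all genes, and at E15.5 in Neurod1 and Nkx2-2. The FVF+ means spanned 1.74 for Myt1, 1.35 for Neurod1, 1.35 for St18 and 1.12 for Runx1t1, and 0.34 for Nkx2-2. For Neurog3 the order was E12.5 (12.46 ± 0.43, n = 3), E13.5 (12.94 ± 0.22, n = 2), E15.5 (12.99 ± 0.04, n = 3) and E14.5 (13.41 ± 0.18, n = 3, SD), and neither E13.5 against E12.5 nor E15.5 against E14.5 passed the test. The arrays of E13.5 and E15.5 overlapped.

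At E13.5 against E12.5 none of the 8 genes was called, and of all genes 1 was (0.00518%). The 8 differences lay between -0.14 for Nkx2-2 and 0.48 for Neurog3. At E14.5 against E13.5, 4 of the 8 rose, against 5.88% of all genes called higher. Myt1 rose by 1.38 ± 0.26 (adjusted p = 0.00268), Neurod1 by 1.13 ± 0.29 (0.0213), St18 by 1.07 ± 0.25 (0.0113) and Runx1t1 by 0.76 ± 0.19 (0.0191). Insm1 differed by 0.81 ± 0.26 (adjusted p = 0.0613), Rfx6 by 0.74 ± 0.37 (0.234) and Neurog3 by 0.48 ± 0.39 (0.487). Nkx2-2 differed by 0.01, with a 95% interval of -0.83 to 0.84. The spread behind this interval includes the FVF- arrays of E14.5 (SD 1.23), while all FVF+ arrays lay within 0.63. Without FVF- E14.5 replicate 3, Rfx6 passed at 0.74 (limma adjusted p = 0.0376).

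This step rested on 2 E13.5 arrays that differed from each other. FVF+ E13.5 replicate 1 was above replicate 2 in 8 of the 8 genes, by 0.12 for Nkx2-2 to 1.1 for St18 with a median of 0.62, while the median over all genes was 0 and 47.6% of all genes were above 0. The mean of 5 endothelium markers was 7.82 on replicate 1 and 9.43 on replicate 2, and that of the 14 hormone and secretory genes was 10.53 on replicate 1 and 9.94 on replicate 2. Without replicate 2, which had the lower values, none of the 4 genes passed, and the differences were 0.92 for Myt1, 0.68 for Neurod1, 0.53 for Runx1t1 and 0.52 for St18 (adjusted p = 0.102 to 0.315). Without FVF+ E14.5 replicate 1, Neurod1 (adjusted p = 0.0682) and Runx1t1 (0.0621) did not pass. Arrays with letter codes in their descriptions were 3 of the 4 E13.5 arrays, among them both FVF+ arrays. In FVF+ cells the letter codes and E13.5 therefore cannot be told apart, and a term for the codes was set by the FVF- arrays of E13.5 alone. With that term none of the 4 genes passed, at differences of 0.86 for St18 to 1.29 for Neurod1 (limma adjusted p = 0.226 to 0.587). Such a fit cannot decide whether the step holds. The numbered codes ran up with embryonic day, so if they follow the order of processing, that order and the day cannot be told apart. Blood and mesenchyme signal was also higher at E13.5: the mean of 10 mesenchyme markers was 8.19 to 8.98 on FVF+ arrays at E14.5 and 9.01 to 9.25 at E13.5, and the mean of 6 blood markers was 7.19 to 7.48 at E14.5 and 8.21 to 8.54 at E13.5. The part of these signals in the step was not tested.

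At E15.5 against E14.5, 1 of the 8 genes fell, a count near the 10.8% of all genes called lower. It was Neurod1, by 1.35 ± 0.26 on the log2 scale (2.55-fold, limma adjusted p = 0.00241). The 3 arrays of E15.5 (10.27, 10.44 and 11.07) were all below the 3 of E14.5 (12.1, 11.73 and 12). The other 7 differences were also below 0, between -0.56 ± 0.23 for Insm1 (adjusted p = 0.0792) and -0.05 ± 0.24 for Myt1 (0.899), and the median of the 8 was -0.39 against 0.06 for all genes. St18 at -0.53 (adjusted p = 0.0873) passed without either of the FVF+ E13.5 arrays (0.0345 each) and, at -0.69, without FVF+ E14.5 replicate 2 (0.0405).

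**Figure D4:**
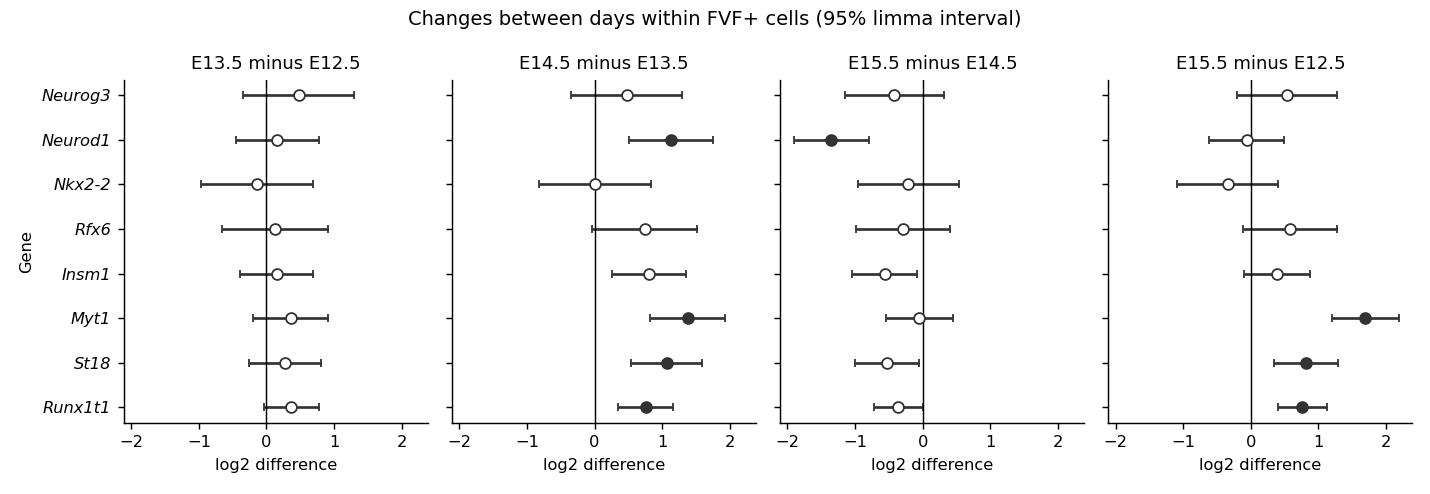
Log2 differences between days within FVF+ cells for the 8 genes, with 95% limma intervals, and with filled points for an adjusted p under 0.05. Filled points are absent at E13.5 minus E12.5, number 4 at E14.5 minus E13.5 (0.76 to 1.38), 1 at E15.5 minus E14.5 (Neurod1 at -1.35) and 3 at E15.5 minus E12.5 (0.77 to 1.69).

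In FVF- cells, 1 of the 8 genes changed between E12.5 and E15.5, a count near the share of all genes called lower. Insm1 fell by 0.80 ± 0.26 (adjusted p = 0.0366), to 8.34, 9.14 and 8.39 at E15.5, against 9.3 and 9.54 at E12.5, while 9.7% of all genes were called lower. It no longer passed without FVF- E12.5 replicate 1 (-0.92, adjusted p = 0.095), E12.5 replicate 2 (-0.68, 0.235), E15.5 replicate 1 (-0.66, 0.134) or E15.5 replicate 3 (-0.68, 0.119). Neurog3 differed by 0.70 (95% interval -0.13 to 1.52) and Nkx2-2 by 0.51 (-0.33 to 1.34), with the epithelial marker mean at 8.77 to 9.43 at E15.5 and 8.19 to 8.21 at E12.5. Without FVF- E14.5 replicate 3 Nkx2-2 passed at 0.51 (adjusted p = 0.0149).

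Changes over this interval differed between the sorts for 4 of the 8 genes, tested as the change in FVF+ minus the change in FVF-, and each of the 4 was higher, against 10.8% of all genes. The difference was 1.51 ± 0.35 for Myt1 (adjusted p = 0.00691), 1.19 ± 0.35 for Insm1 (0.0232), 1.16 ± 0.26 for Runx1t1 (0.0051) and 0.98 ± 0.34 for St18 (0.0495). For Runx1t1 it combined a rise of 0.77 in FVF+ cells with a difference of -0.39 in FVF- cells that did not pass (adjusted p = 0.174). For Insm1 it combined 0.39 in FVF+ cells, not passed, with the fall by 0.80 in FVF- cells. When each of the 21 arrays was left out in turn, St18 no longer passed for 14 of them (highest adjusted p = 0.178, without FVF- E12.5 replicate 2) and Insm1 for 6 (highest 0.11, for the same array), and Myt1 and Runx1t1 passed in all 21 fits. Nkx2-2 differed by -0.85 ± 0.53 (adjusted p = 0.272) and passed at the same value without FVF- E14.5 replicate 3 (0.0047). For Neurog3 the difference was -0.17 (95% interval -1.27 to 0.94), for Neurod1 -0.33 (-1.16 to 0.50) and for Rfx6 0.53 (-0.52 to 1.58).

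**Figure D5:**
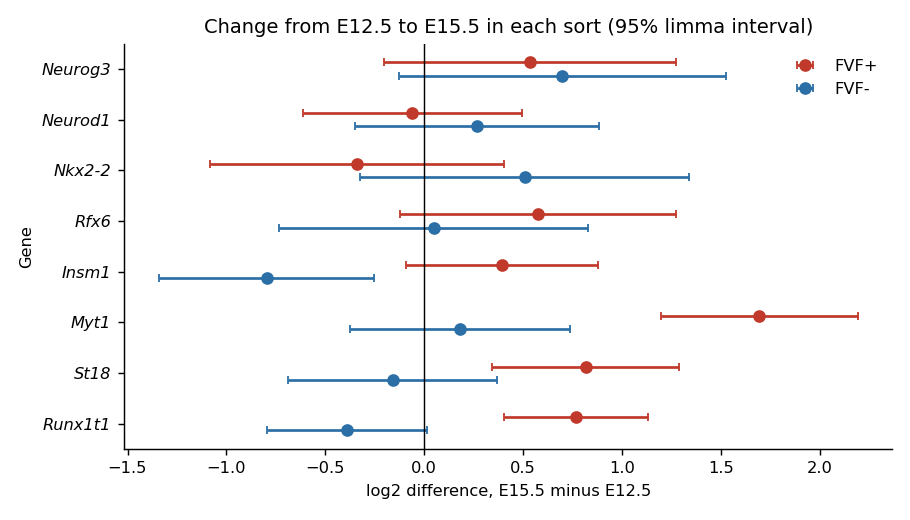
Log2 difference, E15.5 minus E12.5, of the 8 genes in FVF+ cells (red) and FVF- cells (blue), with 95% limma intervals. The FVF+ points of Insm1, Myt1, St18 and Runx1t1 lie at 0.39 to 1.69 and the FVF- points of the same genes at -0.80 to 0.18.

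The profiles of the 8 genes over the 21 arrays fell into 3 sets when each gene was centred on its own mean and compared by the root mean square of the differences. Neurog3, Neurod1, Nkx2-2 and Rfx6 were 0.42 to 0.66 log2 units from each other, with Neurog3 and Rfx6 the nearest pair. Insm1, Myt1 and St18 were 0.35 to 0.53 from each other and 1.20 to 1.53 from the first 4. Runx1t1 was 1.67 to 3.08 from every other gene. The measure is set mostly by the size of the sort difference that the arrays share, so it is a description and has no test.

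Among all named genes, the nearest to Neurog3 were Rfx6 (0.42), the transporter gene Slc44a3 (0.43), the epithelial splicing regulator Esrp1 (0.43), Cpn1 (0.44) and Akr1c19 (0.45). Nearest to Nkx2-2 were the epithelial adhesion gene Epcam (0.23), Esrp1 (0.24) and Habp2 (0.26). Neurod1 was nearest to collectrin, Cltrn (0.45), and Rfx6 (0.46), and Rfx6 was nearest to Akr1c19 (0.39). Myt1 was nearest to Cadps (0.22), which primes secretory granules for release, Baiap3 (0.25) and the kinase gene Pak3 (0.25), and St18 to Ffar2 (0.28), Cadps (0.29) and Pak3 (0.29). For Insm1 the nearest were Rph3al (0.28), a regulator of granule exocytosis, and Reep6 (0.32). For Runx1t1 they were Eya1 (0.28), Kctd12b (0.28) and Wls (0.30), with mean sort differences of -1.22 to -1.07.

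Most genes listed as Neurog3 inputs, a list that also holds a known Neurog3 target, fell in FVF+ cells. Of 14 measured inputs (Notch pathway genes and progenitor transcription factors; 16 were listed and the others are not analysed here), 12 fell and 1 rose at E15.5 against E12.5, when 19.3% of all genes were called lower, and the median was -0.71 against 0.09 for all genes. The Notch target Hey1 changed by -1.91 ± 0.17 (adjusted p = 1.95e-07), the progenitor factors Onecut1 by -1.35 ± 0.54 (0.0474), Prox1 by -1.17 ± 0.37 (0.015) and Sox9 by -1.04 ± 0.24 (0.00216). Mfng, a glycosyltransferase that modifies Notch and a known Neurog3 target, was the gene that rose, by 0.73 ± 0.21 (adjusted p = 0.00836), and Foxa2 differed by -0.11 (0.645). After quantile or cyclic loess normalization 8 of the 14 fell. In the mean sort difference 10 of the 14 were higher in FVF+ cells and 2 lower, against 30.5% and 25.2% of all genes. Pdx1 was at 4.30 and Prox1 at 3.99, and Notch2 was at -0.73 and Jag1 at -0.61.

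Of 16 measured genes of the endocrine progenitor stage (18 listed, with Fev and Cdkn1a not analysed here), 12 were higher in FVF+ cells and 1 was lower. Among all genes these shares were 30.5% and 25.2%. Pax4, a beta and delta lineage factor turned on by Neurog3, differed by 3.73 ± 0.18 and the peptide gene Cck by 2.53 ± 0.13, while Snai2, a regulator of epithelial exit, was lower at -2.92 ± 0.16 (adjusted p = 9.95e-12). In FVF+ cells at E15.5 against E12.5, 5 of the 16 rose, 4 fell and 7 did not pass, with a median of 0.13, and these counts were near the shares of all genes called higher (27.6%) and lower (19.3%). Pak3 rose by 1.32 ± 0.22 and the insulin receptor relative Insrr by 1.02 ± 0.19. Snai2 fell by 1.03 ± 0.29, and Sox4, which acts with Neurog3, fell by 0.97 ± 0.18. Snai2 read 8.12 to 9.64 on the FVF+ arrays of E12.5 and 7.50 to 7.83 at E15.5, against FVF- day means of 11.2 to 12.1. The part of FVF- cells in its FVF+ signal was not tested. At E15.5 against E14.5, the step in which Neurod1 fell, 5 of the 16 fell and 0 rose, when 10.8% of all genes were called lower. Cck at -1.29 ± 0.25 and Gfra3 at -0.70 ± 0.19 were among those that fell.

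The 14 measured islet transcription factors (16 listed, the others not analysed here) were higher in FVF+ cells in 12 cases and lower in 0, against 30.5% and 25.2% of all genes. In FVF+ cells 6 rose and 3 fell at E15.5 against E12.5, and the count that fell was near the 19.3% of all genes called lower (27.6% were called higher). Mafa and Pax6, which drive hormone gene expression, rose by 1.27 ± 0.16 and 1.25 ± 0.32, and Isl1 rose by 1.20 ± 0.22. Hhex, needed by delta cells, changed by -1.27 ± 0.17 and Nkx6-1, a beta cell factor also present in progenitors, by -0.73 ± 0.26. The number that fell was 1 without FVF+ E12.5 replicate 1 or without FVF+ E15.5 replicate 2.

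Hormone and secretory genes moved furthest. All 14 measured (16 listed, Ins1 and Pcsk2 not analysed here, and Isl1 shared with the islet list) were higher in FVF+ cells, against 30.5% of all genes. In FVF+ cells 13 rose at E15.5 against E12.5, with a median of 1.62, when 27.6% of all genes were called higher. The rise was 4.84 ± 0.24 for somatostatin, Sst, 3.36 ± 0.17 for the zinc transporter Slc30a8, 3.13 ± 0.23 for Ins2 and 3.04 ± 0.35 for Iapp, while glucagon, Gcg, differed by -0.07 ± 0.57 (adjusted p = 0.933). The same number, 13 of 14, rose at E14.5 against E13.5, the step in which 4 of the 8 commitment genes and 5.88% of all genes were called higher. The mean of the list per FVF+ array was 9.94 to 10.47 at E12.5 and 9.94 to 10.53 a day later. It was 11.89 to 12.42 at E14.5 and 12.08 to 12.33 at E15.5, so the days before and after that step did not overlap.

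Of 22 measured paralogues of the 8 genes, 7 were higher in FVF+ cells, 3 were lower and 12 did not pass, and their median was 0.04 against 0.03 for all genes. The count that was higher was near the 30.5% of all genes called higher (25.2% were called lower). Rfx3, which also acts in islets, differed by 0.98 ± 0.11 and Neurod2 by 0.68 ± 0.08. Nkx2-3, a factor of gut and spleen mesenchyme, was lower in FVF+ cells at -1.64 ± 0.08 (adjusted p = 3.68e-12), and Nkx2-5 was lower at -0.96 ± 0.11.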

How the data were processed

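Gene expression was measured on 21 arrays of RNA from FVF+ and FVF- cells. RNA came from an RNeasy Mini kit and was amplified and labelled with whole-transcript reagents, per the labels' protocols. The authors ran RMA in affy 1.44.0, per the submitters' processing notes, and deposited log2 signals. The sources used here do not say how probe sets were defined. RMA compresses differences of dim probe sets, so the differences of genes near background in FVF- cells may be understated.

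Of 23305 probe sets, 20728 carried 1 gene symbol. For the 804 genes with several, the probe set with the highest mean was used, which left 19296 genes. limma 3.58.1 in R 4.3.3 fitted 8 group means on all arrays (13 residual degrees of freedom), with 2-sided p-values adjusted by Benjamini-Hochberg over all genes within each of 11 comparisons. A call is an adjusted p under 0.05. Adjusted p-values are from limma, errors of differences are moderated SE, errors of means are SD, and intervals are 95%. The steps were tested on simulated data.

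The 8 genes, the 5 lists and the 6 marker lists were chosen with earlier results of these data known, so counts within lists are descriptions. From a list, up to 4 called genes per direction with the largest differences and up to 2 not called could be named, and 5 genes nearest to Neurog3 and 3 nearest to each other gene. Promoter windows came from RefSeq; bases after the start were not used. Results were recomputed with each array left out, without E13.5, with a term for arrays with letter codes, with replicate blocks, in fits of the groups compared, with array weights, with trended and robust moderation, after 3 renormalizations, without dim genes, with other uses of multiple probe sets and at a 2-fold threshold. Leaving out FVF+ E12.5 replicate 1 and FVF- E14.5 replicate 3 together was chosen after seeing the data.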

Additional observations from a re-analysis of the deposited data

Results flagged for a closer look

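For 4 genes the E15.5 against E12.5 change differed between the sorts when the difference itself was tested. The change in FVF+ minus the change in FVF- was 1.51 log2 units for Myt1, 1.19 for Insm1, 1.16 for Runx1t1 and 0.98 for St18 (limma adjusted p = 0.00691, 0.0232, 0.0051 and 0.0495). Myt1 and Runx1t1 passed with each of the 21 arrays left out in turn, and Insm1 and St18 did not. On FVF- arrays Myt1 (7.13 to 7.9) and St18 (6.78 to 7.29) lay below the array medians of 8.68 to 8.82. Low signal limits what changes of these genes can be seen in FVF- cells.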

How the results depend on the processing

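Of 88 results for single genes, 53 were called, and 42 of these passed under every alternative. The 35 sort differences of the 7 genes other than Runx1t1 were among them, and no called result changed sign. The number of genes called for the sort stayed at 8 for the mean of days, E12.5 and E13.5 and was 7 to 8 at E14.5 and at E15.5 when 1 array was left out.

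Counts within FVF+ cells were less stable. For E15.5 against E12.5 (3 genes) the count was 1 at a 2-fold threshold, 6 in a fit of the groups compared and 3 to 5 with 1 array left out. For E13.5 against E12.5 it stayed at 0. For E14.5 against E13.5 (4 genes) it was 2 in a fit of the groups compared, 0 with a term for letter-coded arrays and 0 to 5 with 1 array left out. Both FVF+ E13.5 arrays had letter codes, so that term cannot be told apart from this step in FVF+ cells. For E15.5 against E14.5 (1 gene) it was 2 after cyclic loess normalization, with array weights, in a fit of the groups compared and without E13.5, and 1 to 2 with 1 array left out. In FVF- cells (1 gene) it was 0 at a 2-fold threshold and after cyclic loess normalization, 2 in a fit of the groups compared and without both arrays that stood apart, and 0 to 2 with 1 array left out. For the difference of changes (4 genes) it was 2 to 5 with 1 array left out. Where a setting used fewer arrays, the spread was estimated anew; for the other settings the cause was not tested.

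Replicate numbers were not used as pairs in the main fit, and 3 of 10 same-number pairs correlated above 0.1 (-0.37 to 0.49). These correlations cannot decide whether the sorts were paired, because they use deviations from means of 2 or 3 arrays. A replicate block was also fitted, with each replicate number shared across all days and both sorts. Such a block does not pair the sorts within a day, so its results cannot decide that question either. With this block Insm1 passed at E14.5 against E13.5 (0.88, limma adjusted p = 0.0322). St18 no longer passed for the difference of changes (0.98, adjusted p = 0.0542), and no other call among the 88 changed.

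In FVF- cells Neurod1 and Rfx6 read between 5.75 and 7.72, Myt1 between 7.13 and 7.9 and St18 between 6.78 and 7.29. Array medians were 8.68 to 8.82 over all probe sets, and the depth of signal limits what small changes of these genes can show there. For Myt1 and St18 this limit also bears on the difference of changes between the sorts.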

Other observations

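Relatives of the 8 genes also changed with time in FVF+ cells. Of 22 paralogues measured, 13 rose, 2 fell and 7 did not pass at E15.5 against E12.5, with a median of 0.35 against 0.09 for all genes (limma). The shares of all genes called were 27.6% higher and 19.3% lower. The number that rose was 11 after median centring and 9 after quantile or cyclic loess normalization. Over all genes, 5317 were called higher as deposited, 3778 after quantile and 3769 after cyclic loess normalization. Several paralogues were dim: in FVF+ cells Nkx2-9 averaged 7.97 at E12.5 and 8.78 at E15.5, beside array medians of 8.68 to 8.82. The part of low signal in these counts was not tested. Cbfa2t3, a co-repressor related to Runx1t1, rose by 0.96 ± 0.12 (adjusted p = 9.52e-06), Neurod2, a relative of Neurod1, by 0.77 ± 0.14 (0.000382), Nkx2-9 by 0.81 ± 0.13 (9.23e-05) and Rfx2 by 0.69 ± 0.08 (5.63e-06). Rfx7 fell by 1.09 ± 0.19 (0.0002) and Rfx5 fell by 0.34 ± 0.11 (0.014). The mean of 4 proliferation markers on FVF+ arrays was 11.84 to 12.19 at E12.5 and 12.05 to 12.33 a day later. It was 11.41 to 12.19 at E14.5 and 11.41 to 11.56 at E15.5. Of the 4, 1 was called lower and 3 were not called at E15.5 against E12.5, so the mean does not describe each marker. From E12.5 to E15.5 the FVF+ group means went from 11.43 to 9.84 for Bub1 and from 11.87 to 11.44 for Top2a. They went from 12.34 to 12.09 for Mki67 and from 12.48 to 12.57 for Cdk1.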
